A study of Mus musculus with 97 samples.

Results

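The account below concerns the hippocampus of APOE4 mice after doxorubicin plus docetaxel (DD), set against the hippocampus of APOE4 mice given vehicle. These were 16 of the 97 libraries of the series, 8 in each group, taken by the genotype, treatment and region in their titles. Within them, 94 of the 19962 genes in the table were tested, namely those whose median ratio to the negative probe over the 16 libraries was over 2. The negative probe is the assay's combined control for probes that have no target in the tissue.

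Doxorubicin is an anthracycline that enters DNA and traps topoisomerase II, and docetaxel is a taxane that binds tubulin and holds microtubules assembled. Both are used together in cancer treatment, and neither crosses the blood-brain barrier readily. APOE is the main lipid carrier made by astrocytes, and its APOE4 form is the common inherited risk factor for late-onset Alzheimer's disease; the hippocampus serves memory and is a region studied in cognitive decline after chemotherapy. The series asks how the APOE form bears on inflammatory, metabolic and neuroprotective genes after combined chemotherapy in older mice.

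All 16 libraries came from older mice whose own Apoe is replaced by human APOE4. In DD animals the weekly dose was 3 mg/kg of doxorubicin with 10 mg/kg of docetaxel, split over 2 injections into the peritoneum per week, for 2 weeks. Vehicle animals received 50% dimethyl sulfoxide in buffered saline on the same schedule. Comparison groups of 8 libraries each were the APOE3 hippocampus and the APOE4 cortex after DD or vehicle, and the APOE4 hippocampus after DC, in which cyclophosphamide at 40 mg/kg per week took the place of docetaxel. RNA was read with the GeoMx whole transcriptome panel from captured regions of 8 µm brain sections. The labels do not tie regions to animals, so every p-value below is over captured regions and is too small wherever regions share an animal. All libraries of the APOE4 mice were on 1 collection plate, and those of APOE3 mice on the other, so plate and genotype cannot be told apart in levels.

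Depth was low. Total counts per library ran from 40154 to 127835, and the table holds no value below 1, so that part of each total is this floor over 19962 genes. The 94 tested genes held 2119 to 5644 counts in vehicle libraries (median 3596) and 3394 to 9837 in DD libraries (median 4380). The negative probe read 1.72 to 4.10 in vehicle and 1.84 to 5.41 in DD. Geometric means in DD were 1.37-fold those of vehicle for the tested counts, 1.22-fold for the total and 1.24-fold for the negative probe, none past the threshold (adjusted p = 0.238 for each, two-sided exact permutation tests, n = 8 and 8). Without DD libraries 7 and 8, which were the deepest, the ratio of geometric mean totals was 1.01. The deepest vehicle library, library 8 with a total of 92107, was kept in that ratio.

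Most of the transcriptome lay at background. The median gene had 0.987 times the negative probe, and 10575 of 19962 genes were at or below it. At the limit, Rpl31, Pax9 and Rrm2 were just inside with a ratio of 2.02, whereas Siah1a and Rrad (1.99) and 2610528J11Rik (1.99) were just outside. Few genes of the study's question could be compared. Of 405 genes in 36 lists of pathways and cell types, 398 were measured and 5 were tested, and 33 lists had no tested member. Median ratios of these lists ran from 0.855 for cytokines and NF-kB targets to 1.48 for ribosomal proteins. The hippocampus marker list, which should mark the labelled region, had a median ratio of 0.905 with 0 of 15 genes tested, so the region label could not be checked. The homeostatic microglia list stood at 1.11, the reactive astrocyte list at 0.967 and the list of myelin and oligodendrocyte genes at 0.866, each with 0 genes tested. The p53 and DNA damage list, to which doxorubicin responses belong, stood at 1.04, and the list of docetaxel targets, tubulins and microtubule proteins at 1.05, also with 0 genes tested.

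Among genes a reader would look for, Apoe had a ratio of 0.778 to the negative probe, Bdnf, a neurotrophin, 0.683 and Mbp, a myelin protein, 0.879. Gfap, the astrocyte filament, had 1.20, Aif1, a microglial marker, 1.19 and Cdkn1a, the p53 target that halts the cell cycle, 1.55. Cdkn1a held 1 to 6 counts (median 2.5) in vehicle and 1 to 10 (median 4.5) in DD, and Gfap held 1 to 8 (median 3) in vehicle and 1 to 6 (median 4.5) in DD. Ranges overlapped for both, and neither passed without the filter (log2 fold change 0.23 and -0.25, adjusted p = 0.994 by edgeR). Apart from Apoe, a change in these genes was not detectable at this depth. The mouse Apoe gene is replaced by human APOE4 in these mice. Whether the mouse panel reads the human transcript was not tested, so the Apoe value is not a measure of APOE4 expression.

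The tested genes were a narrow set. Mtch2, which encodes an insertase of the mitochondrial outer membrane, alone held 31.2% to 52.0% of the tested counts in vehicle (41.1% ± 8.44, SD, n = 8) and 31.9% to 43.4% in DD (37.9% ± 3.99, n = 8). Its median ratio to the negative probe was 703. Next came 3 predicted genes, Gm33888 (ratio 164), Gm46840 (140) and Gm10265 (84.9), then Hmga2 (48.4), which encodes an architectural chromatin protein, Gm52523 (41.8) and Tysnd1 (36.6). For 51 of the 94 genes the ratio was over 3. Levels below are scaled counts per 1000 counts of the tested genes (TMM scaling), so a gene's level is relative to a total in which Mtch2 weighs heavily; a probe's level is not compared with another probe's.

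DD against vehicle gave 1 gene of 94 past the threshold (1.06%, edgeR quasi-likelihood F test, adjusted p under 0.05), Mplkip, and that call rested on 1 vehicle library. Before adjustment 15 of 94 genes had p under 0.05. The median log2 fold change over the 94 genes was -0.07, with 39 values above 0 and 55 below. The genes with the smallest p after Mplkip were 3 with higher means after DD: Tysnd1, Gimap4 and Coa5. None of the 3 passed the threshold over all 16 libraries. Tysnd1 was the 1 gene of 94 (1.06%) whose groups did not overlap in TMM-scaled counts.

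**Figure D1:**
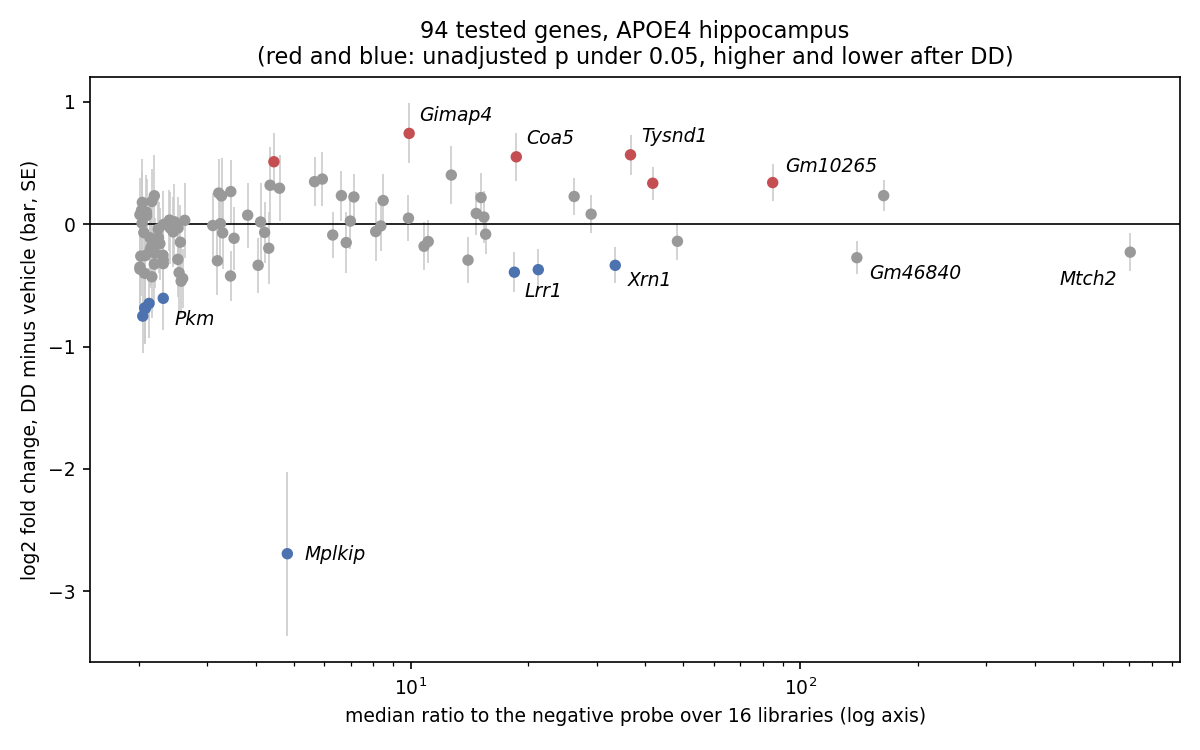
Log2 fold change of DD against vehicle (y axis, with SE) against the median ratio to the negative probe (x axis, log scale) for the 94 tested genes in APOE4 hippocampus, 8 libraries a group. Mplkip lies alone at -2.69; Tysnd1, Gimap4 and Coa5 lie above 0 at ratios of 36.6, 9.90 and 18.7, and most genes with a ratio of 3 or less lie below 0.

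Mplkip, mutated in a form of trichothiodystrophy and located at chr13:17695413-17699112 (mm10), held 484 counts in vehicle library 3. The other 7 vehicle libraries held 4 to 22 counts and the DD libraries 5 to 26. In scaled counts vehicle library 3 stood at 110.6 per 1000, the next vehicle library at 6.81, and the DD libraries between 1.86 and 4.27 (median 3.28). Only vehicle library 3 was far from the rest, and the other values of the groups overlapped. The fitted log2 fold change was -2.69 (SE 0.67, adjusted p = 0.0352, edgeR). Without vehicle library 3 it was -0.36 (SE 0.26, adjusted p = 0.519), so the remaining 15 libraries showed no difference past the threshold. The call was also lost when any 1 of the 8 DD libraries was left out (adjusted p = 0.0601 to 0.156), at log2 values of -2.60 to -2.80. DESeq2, which replaces such outlying counts, gave -0.28 with adjusted p = 0.778.

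Tysnd1 encodes the peroxisomal protease that trims imported enzymes of lipid breakdown, and lies at chr10:61695500-61702773 (mm10). Its level was 10.4 to 21.2 per 1000 in vehicle (median 20.1) and 21.6 to 32.2 in DD (median 24.2). All 8 DD libraries lay above the highest vehicle library, but the nearest values, 21.2 and 21.6, were almost the same. The 3 lowest values were those of 3 vehicle libraries (4, 7 and 8). This separation depended on TMM scaling. As a plain share of tested counts the groups overlapped. Vehicle library 2 held 50 Tysnd1 counts of 2119, a larger share than the 94 of 4556 in DD library 6. The fold was 1.48 (log2 0.57, SE 0.16, adjusted p = 0.0825, edgeR), which missed the threshold. It passed without vehicle library 3 (log2 0.62, adjusted p = 0.0191), without vehicle libraries 3 and 6 (0.73, adjusted p = 0.00481), with library sizes alone (0.65, adjusted p = 0.0481) and with DESeq2 (0.61, adjusted p = 0.0439). Vehicle library 3 had the highest vehicle value, 21.2, and vehicle library 6 had 20.4. Leaving them out therefore removes vehicle values above the vehicle median. Without vehicle libraries 7 and 8, which are neighbours on the plate, it was 0.43 (adjusted p = 0.411). Over all settings tried the estimate stayed above 0.

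Gimap4, a GTPase of the lymphocyte GIMAP family at chr6:48684578-48692062 (mm10), is expressed mainly in leukocytes. Its level was 2.28 to 6.58 per 1000 in vehicle (median 5.58) and 4.49 to 10.9 in DD (median 7.63). In 7 of 8 DD libraries the level was above the vehicle mean, 4 lay above every vehicle library, and the ranges overlapped. The fold was 1.67 (log2 0.74, SE 0.24, adjusted p = 0.159, edgeR). It passed without vehicle library 3 (0.76, adjusted p = 0.0358) and without vehicle libraries 3 and 6 (0.90, adjusted p = 0.0179). Without vehicle libraries 7 and 8 it was 0.50 (adjusted p = 0.453). The part of blood cells in this value was not tested. The blood cell list had a median ratio of 1.07 with 0 of its 7 measured genes tested. Of 5 genes listed for leukocytes, 3 were tested, Gimap4, Cd99 and Rgs19. Cd99 had a log2 value of 0.09 and Rgs19 -0.01 (adjusted p = 0.910 and 0.991, edgeR). In bulk regions more cells of a type and more RNA per cell cannot be told apart.

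Coa5 encodes an assembly factor of cytochrome c oxidase and lies at chr1:37417085-37430103 (mm10). It ran from 3.91 to 10.9 per 1000 in vehicle (median 8.35) and from 9.95 to 13.1 in DD (median 11.2). The groups overlapped, with 4 DD libraries above the highest vehicle library and 4 within its range. The fold was 1.46 (log2 0.55, SE 0.20, adjusted p = 0.209, edgeR), and the gene passed only when vehicle libraries 3 and 6 were both left out (0.73, adjusted p = 0.0179). Without vehicle libraries 7 and 8 the value was 0.30 (adjusted p = 0.453).

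Leaving out those 2 libraries, which hold most of the single-library values described below, gave 3 calls in place of 1, namely Tysnd1, Gimap4 and Coa5, all higher after DD. This choice was made after the values were seen. With counts summed over the 4 runs of neighbouring wells in each group, or with the run as a random block, no gene passed (0 of 94, edgeR and limma; 9 and 12 genes at unadjusted p under 0.05).

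**Figure D2:**
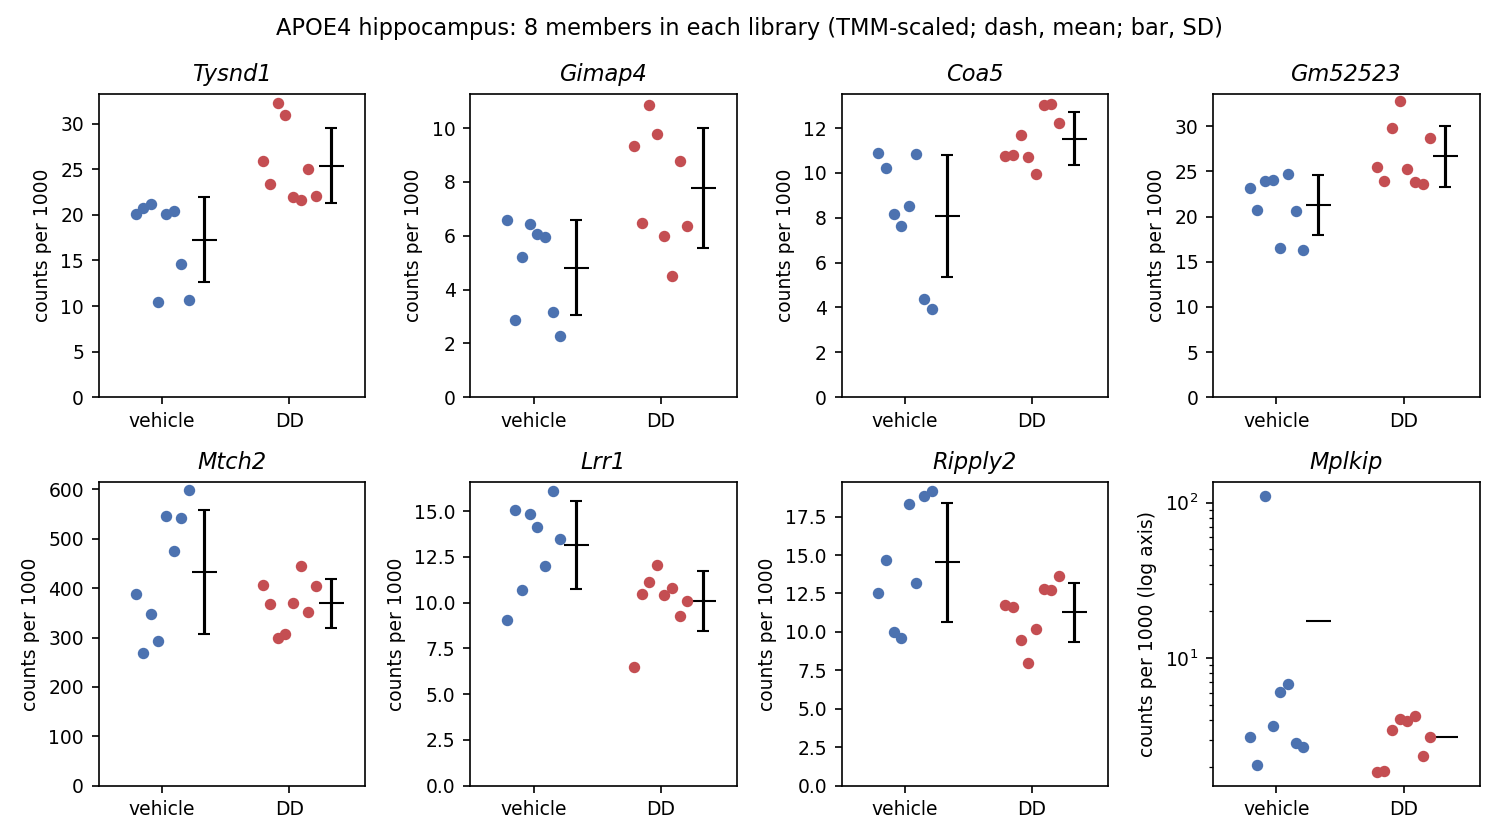
Scaled counts per 1000 tested counts of 8 genes in each APOE4 hippocampus library, 8 vehicle (blue) and 8 DD (red); dashes are means and bars SD, with Mplkip on a log axis and its mean without SD. With this TMM scaling Tysnd1 groups do not overlap (highest vehicle 21.2, lowest DD 21.6), the other 7 genes overlap, and Mplkip has 1 vehicle value of 110.6.

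The other genes with higher means after DD were led by predicted genes. Gm52523 ran from 16.3 to 24.7 per 1000 in vehicle and from 23.6 to 32.8 in DD (median 25.4), with 5 of 8 DD libraries above every vehicle library. The DD value was 0.33 on the log2 scale (SE 0.13, adjusted p = 0.243, edgeR). Gm10265 ran from 22.7 to 54.7 in vehicle and 45.4 to 55.8 in DD, with a value of 0.34 (SE 0.15, adjusted p = 0.250, edgeR), and Gm33888 from 57.1 to 108.1 and 88.9 to 105.2, with 0.23 (adjusted p = 0.425). In the last 2 the DD libraries were close together and lay within or near the upper end of a wide vehicle range. Of the 6 predicted Gm genes tested, 4 had values above 0 and 0 passed.

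Pcbd2, an enzyme of pterin recycling, had a log2 fold change of 0.51 (SE 0.24, adjusted p = 0.252, edgeR), and its groups overlapped. Of the genes known from brain cells, Olig2, which drives oligodendrocyte fate, was the only tested member of the list of 10 oligodendrocyte precursor genes; its level was 2.84 to 4.78 per 1000 in vehicle (median 3.53) and 2.92 to 6.14 in DD (median 3.96), a log2 value of 0.35 (adjusted p = 0.440). Ctxn1, a neuronal membrane protein, had 0.40 and Marcks, an actin-binding substrate of protein kinase C, 0.37, and neither passed. Of the 6 tested genes of neurons 4 had values above 0 (Ctxn1, Marcks, Sprn at 0.19 and Calm2 at 0.03), Inhbb and Pcsk1 had -0.09 and -0.03, and 0 passed. These 6 had a median of 0.11, against -0.07 over all 94 genes.

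The 4 genes listed for mitochondrial proteins, which are not all such genes among the 94, had values on both sides of 0. Coa5 was at 0.55 and Mtch2 at -0.23, while Tmem65, a protein of the inner membrane, was at 0.07 and Fdx2, a ferredoxin of iron-sulfur cluster assembly, at -0.02; 0 of the 4 passed. Mtch2 itself ran from 269.6 to 598.4 per 1000 in vehicle (median 430.8) and from 299.6 to 444.8 in DD (median 368.7). Every DD library lay inside the vehicle range, and the difference was within the spread (SE 0.15, adjusted p = 0.518, edgeR). Taking library sizes without Mtch2 gave 0 calls and left Tysnd1 at 0.59 and Mplkip at -2.75 (adjusted p = 0.121 and 0.0538).

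Among genes with a ratio over 3, the smallest p for a lower mean after DD, after that of Mplkip, was that of Lrr1, the substrate receptor with which a CUL2 ubiquitin ligase takes the replication machinery off DNA. Its level was 9.04 to 16.1 per 1000 in vehicle (median 13.8) and 6.51 to 12.1 in DD (median 10.5), with log2 -0.39 (SE 0.16, adjusted p = 0.243, edgeR). All 8 DD libraries lay below the vehicle mean but only 1 below the whole vehicle range. Xrn1, the 5′ to 3′ exonuclease of messenger RNA decay, had 16.6 to 27.8 in vehicle and 14.7 to 23.7 in DD (log2 -0.34, adjusted p = 0.243). Ripply2, a transcriptional repressor of somite formation, had -0.37 (adjusted p = 0.252) and Gm46840 -0.27 (adjusted p = 0.303). Hmga2 had -0.14, with ranges of 20.7 to 44.5 and 19.5 to 38.7. These genes all overlapped between groups, and none passed.

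The remaining genes with a low p and a lower mean were close to background. H2bc11 (a histone H2B), Rusc2, Pkm (pyruvate kinase, the only tested glycolysis gene), Bmp2 (a growth factor) and Psg27 had ratios of 2.05 to 2.31 to the negative probe and mean counts of 4.50 to 6.75 per library. In vehicle their ratios were 2.27 to 2.71, and in DD 1.42 to 1.95, under the limit of 2. They therefore passed the filter through the vehicle libraries, where they were higher. Their log2 values were -0.75 for H2bc11, -0.69 for Pkm and Bmp2, -0.65 for Psg27 and -0.61 for Rusc2 (adjusted p = 0.243 to 0.252, edgeR). The share of values below 0 moved with the signal. Of the 43 genes with a ratio of 3 or less, 32 had values below 0 (median -0.19). Of the 51 genes above it, 23 had (median 0.02). The ratio was taken over the same 16 libraries, so a gene near the limit can pass through the group where it is higher. This split is therefore not independent of the DD values. The negative probe and the depth moved the same way between groups, as given above, and their part in these values was not tested. The 6 ribosomal protein genes had a median of -0.23 with 4 below 0, and 0 passed.

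Genes raised in a single library were frequent in the vehicle group. A gene was counted here when its highest library, per tested count, was at least 5 times the next of the 16 and held at least 20 counts. There were 90 such genes, 80 of them highest in a vehicle library and 10 in a DD library. Vehicle library 3 held 45 and vehicle library 6 held 29, together 82.2%, and each of the other 14 libraries held 0 to 3. In vehicle library 3 these genes held 7169 counts, 12.6% of its total. A limit of more than 5 such genes, set after this listing was seen, marks vehicle libraries 3 and 6.

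The largest of these values by fold per tested count belonged to genes with a median of 1 to 3 counts in the other libraries. In vehicle library 3, Apol7a, an apolipoprotein L gene, held 1027 counts, and no other library held more than 5. Dennd11 held 865 there and at most 13 elsewhere, and Las1l, a factor of ribosome assembly, 492 and at most 8. Cpb2 held 447 and at most 8 elsewhere, and Matr3, a nuclear matrix protein, 223 and at most 7. Per tested count these genes, from Apol7a to Matr3, were 195, 140, 72.1, 65.0 and 52.9 times the library ranked next. In vehicle library 6, Cys1, a protein of the primary cilium, held 334 counts and at most 10 elsewhere (51.6-fold per tested count). The largest fold in DD was that of Mxra8 in DD library 2, with 66 counts and at most 5 elsewhere (21.8-fold). Only 1 of the 90, Mplkip, was among the tested genes, so the filter on the negative probe kept 89 of them out. No pair of the 16 libraries was identical.

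**Figure D3:**
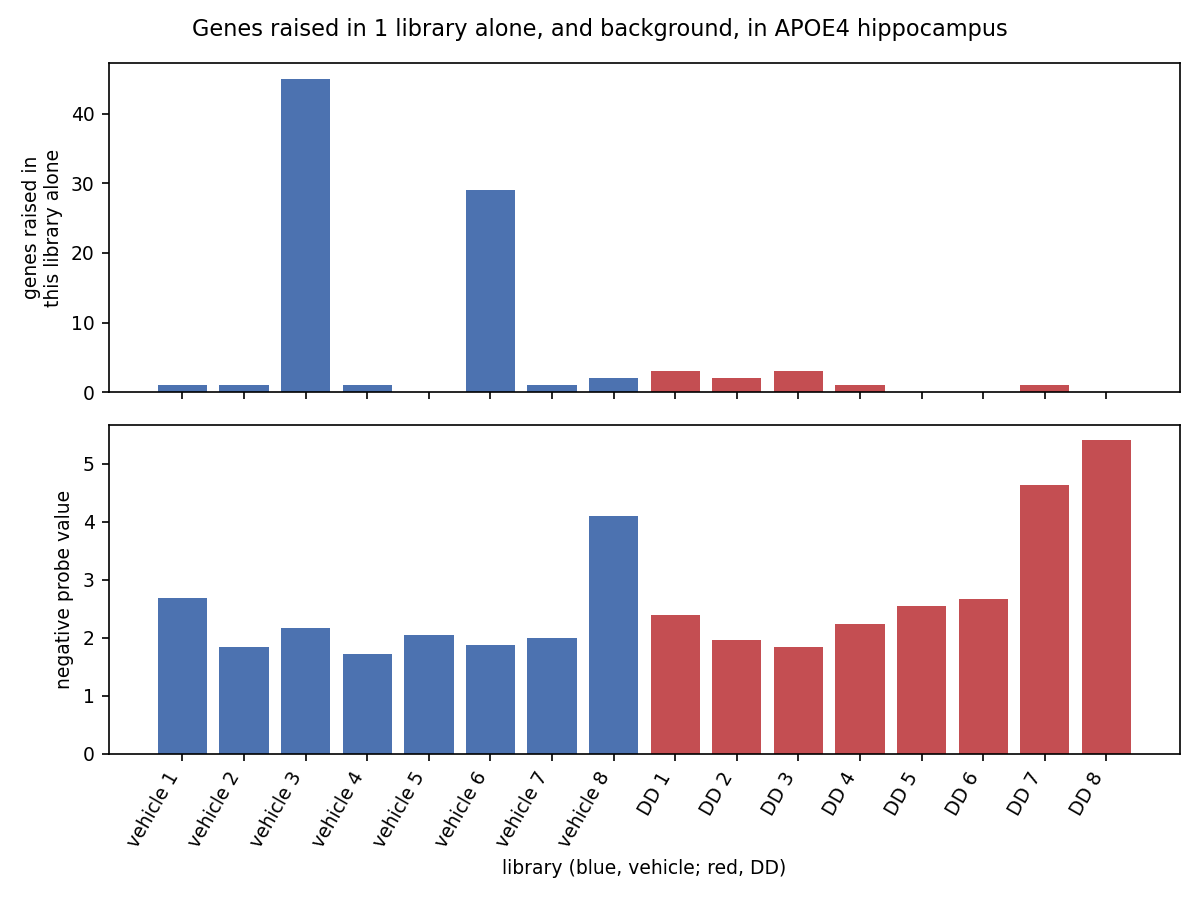
Number of genes raised in each library alone (upper bars) and value of the negative probe (lower bars) in the 16 APOE4 hippocampus libraries, vehicle in blue and DD in red. Vehicle libraries 3 and 6 hold 45 and 29 such genes with a negative probe of 2.17 and 1.88, while the highest negative probes, 4.64 and 5.41, are those of DD libraries 7 and 8.

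With no filter, most calls were such genes. Over all 19962 genes, 66 passed (0.331%, edgeR, adjusted p under 0.05), 63 lower and 3 higher after DD. Of the 66, 59 were genes raised in a single library, 54 of those in vehicle libraries 3 and 6, and 47 had a median ratio to the negative probe of 1 or less. Only Mplkip was among the 94 tested genes. Without vehicle libraries 3 and 6 there were 8 calls, 4 in each direction, all 8 of them single-library genes, and 5 of the 66 remained. The list genes gave 1 call in the unfiltered fit, Idh3a of the TCA cycle (log2 -1.86), which is itself a single-library gene, with 42 counts in vehicle library 3 and at most 4 elsewhere, and did not pass without vehicle libraries 3 and 6. The 3 higher calls, Mxra8, Hhipl2 and Fbf1, were each raised in DD library 1 or 2 alone.

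Whether the DD difference itself differed by APOE form was tested against the APOE3 hippocampus. Differences and APOE3 values came from a joint fit to the DD and vehicle groups of both genotypes. APOE4 values came from the fit to the 16 libraries alone. A difference therefore need not equal the gap between the printed values, here and for the cortex below. No gene passed (0%, 0 of 94, edgeR; 14 at unadjusted p under 0.05). Gm34733 had the smallest p, with a DD value of 0.08 (SE 0.16) in APOE4 and -0.68 (SE 0.18) in APOE3, a difference of 0.81 (SE 0.24, adjusted p = 0.142). Coa5 had 0.55 (SE 0.20) in APOE4 and -0.34 (SE 0.23) in APOE3, a difference of 0.93 (SE 0.31, adjusted p = 0.142). Erlin2, a protein of the endoplasmic reticulum, had 0.22 and -0.35, a difference of 0.61 (adjusted p = 0.142). Without vehicle libraries 3 and 6 these 3 genes passed, with differences of 0.85, 1.11 and 0.78 (adjusted p = 0.0388, 0.0314 and 0.0388). Tysnd1 had 0.02 (SE 0.18) in APOE3, a difference of 0.58 (adjusted p = 0.172), and Mtch2 -0.90 (SE 0.22), a difference of 0.73 (adjusted p = 0.172). Gimap4 was above 0 in APOE3 as well, at 0.23 (SE 0.28), a difference of 0.55 (adjusted p = 0.509, edgeR). Over all genes with no filter, Mtch2 was the 1 call, with a difference of 1.04 (adjusted p = 1.82e-06, edgeR). The level of these differences moved with the scaling. Their median over the 94 genes was -0.09 with TMM scaling, with 40 values above 0. It was -0.61 with library sizes alone (21 above 0) and -0.41 with upper-quartile factors (27 above 0). With the negative probe as library size it was 0.18 (60 above 0).

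Against the APOE4 cortex 2 of 94 genes passed (2.13%, edgeR), both lower in hippocampus. Mplkip had -2.69 in hippocampus and 0.38 (SE 0.58) in cortex, a difference of -3.08 (adjusted p = 0.0322), which rests on the 484 counts of vehicle library 3. Psg27, a pregnancy-specific glycoprotein gene, had -0.65 in hippocampus and 1.07 (SE 0.33) in cortex. The difference was -1.62 (adjusted p = 0.0354, edgeR). The Psg27 ratio to the negative probe in APOE4 hippocampus was 2.13, with 2.32 in vehicle and 1.70 in DD. Leaving out vehicle library 3 gave 0 calls, as did DESeq2, counts summed over runs and the run as a random block. The 3 genes that led in hippocampus had cortex values on the same side of 0: 0.28 (SE 0.16) for Tysnd1, 0.56 (SE 0.29) for Gimap4 and 0.48 (SE 0.19) for Coa5. Mtch2 was at -0.65 (SE 0.15) in cortex, and its difference from hippocampus in the joint fit was 0.53 (adjusted p = 0.485, edgeR). In the fit to the 94 genes, the differences between regions of Tysnd1, Gimap4, Coa5 and Mtch2 did not pass. Over all genes with no filter, Mtch2 was among the 23 calls between regions, with a difference above 0, as it was a call against APOE3.

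**Figure D4:**
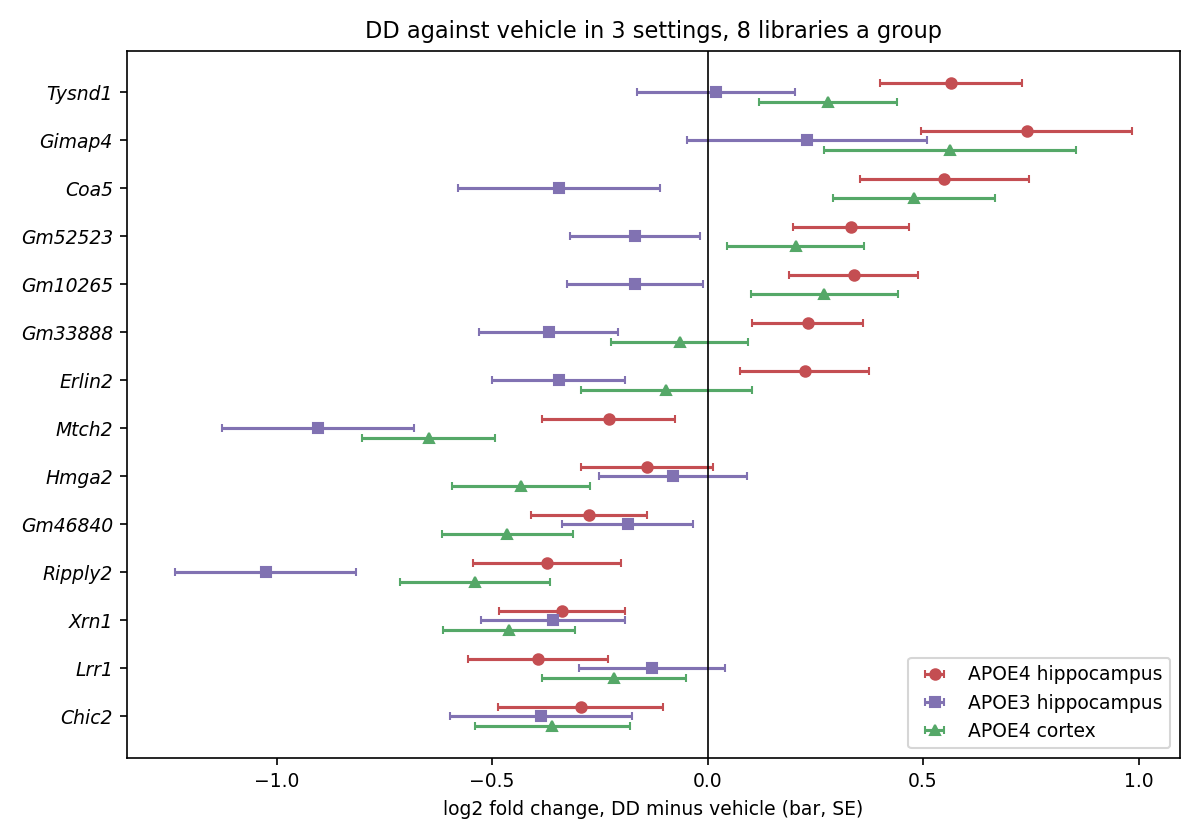
Log2 fold change of DD against vehicle (x axis, with SE) for 14 genes in APOE4 hippocampus (circles), APOE3 hippocampus (squares) and APOE4 cortex (triangles), 8 libraries a group. Circles are from the fit to the 16 libraries alone, and squares and triangles from joint fits with the APOE4 hippocampus. Tysnd1, Gimap4 and Coa5 lie above 0 in both APOE4 regions. In APOE3 hippocampus Gimap4 lies at 0.23, Tysnd1 at 0.02 and Coa5 below 0. Mtch2 lies below 0 in all 3 settings.

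The same genes were compared between hippocampus and cortex in the APOE3 vehicle libraries, which share no library with the DD comparison, to show which of them differ by brain region. There 38 of 94 genes passed (40.4%, edgeR), 13 higher in hippocampus and 25 higher in cortex. Tysnd1 was higher in cortex (hippocampus minus cortex -0.95), as were Gm10265 (-1.05), Gm52523 (-1.19), Gimap4 (-0.70) and Coa5 (-0.63). Mtch2 (1.12), Gm33888 (0.98), Xrn1 (0.80), Gm46840 (0.79) and Ripply2 (0.73) were higher in hippocampus. Of the 13 genes higher in hippocampus, 8 had DD values below 0 in APOE4 hippocampus (median -0.14) and 5 above, among them Gm33888. Of the 25 higher in cortex, 15 had DD values above 0 (median 0.03) and 10 below. Among those below were Lrr1 (DD value -0.39, region value -0.88) and Chic2 (DD value -0.29, region value -1.24). Over all 94 genes, 55 values were below 0 and 39 above. The region and DD values had a Pearson correlation of -0.15 across these genes (Spearman -0.17). Over the 20 genes with the highest ratio to the negative probe it was -0.41 (Spearman -0.28). Genes are not independent replicates. The part of where in the region each capture lay was not tested.

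The genes whose level followed Tysnd1 most closely over the 16 libraries, by Pearson correlation of scaled counts, were Gm10265 (0.886), Coa5 (0.763), Ctxn1 (0.756), Trir (0.728) and Gimap4 (0.685). By Spearman correlation the highest were Gm10265 (0.715) and Gm52523 (0.709), with Gimap4 at 0.677, Coa5 at 0.627, Ctxn1 at 0.579 and Trir at 0.329. Both groups were pooled, so a difference between DD and vehicle that genes share enters these values. The genes share libraries and depth, and the values describe the 16 libraries with no test.

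The regimens were compared directly, DD against DC, both of which contain doxorubicin. Of 94 genes, 32 passed (34%, edgeR), 9 higher and 23 lower in DD. The direction depends on the scaling: with the negative probe as library size 74 passed, 74 higher and 0 lower, the same counts held with the total of all genes, and with library sizes alone 56 passed, 2 higher and 54 lower. With TMM scaling, all 9 higher genes had a ratio over 3, among them Gm10265 (0.94, adjusted p = 0.0102), Gm52523 (0.89), Gimap4 (0.80), Trir (0.70), Coa5 (0.69) and Tysnd1 (0.68, adjusted p = 0.0467), and 22 of the 23 lower genes had a ratio of 3 or less, led by Tatdn2 (-1.40) and Rps3a1 (-1.32). The negative probe was 1.63 to 93.1 in DC libraries (median 10.9) against a median of 2.47 in DD, so background differed between the regimens. With the negative probe subtracted, 6 genes passed, 2 higher and 4 lower. Without libraries whose negative probe was 5 or more, 0 of 94 genes passed, and with the run of wells as a random block 0 passed. Tysnd1 stood at -0.12 and Gimap4 at -0.07 in DC against the same vehicle libraries.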

How the data were processed

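Captured regions were read with the GeoMx mouse whole transcriptome panel and sequenced on an Illumina instrument, per the labels' protocols; the submitters' processing notes name mm10. As deposited, each probe target has an expected count that is not scaled to depth, with a lowest value of 1; the counting software is not given in the sources used here. Values were rounded; 4 rows, 3 genes and the negative probe, were not whole. Genes over 2 times the negative probe (median over 16 libraries) were tested with edgeR 4.0.16 in R 4.3.3 (TMM, library size the sum of tested genes, quasi-likelihood F test, Benjamini-Hochberg over the genes tested, threshold 0.05), with SE derived from the F statistic. Alternatives included DESeq2 1.42.0 and limma 3.58.1 (run of wells as a random block, consensus correlation 0.169). The procedure was tested on simulated data, drawn independently for each library. No single-library values and no correlation within runs were put into them, so they do not show how the calls depend on these. A run is a set of neighbouring wells of 1 group, which may or may not be 1 animal.

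Named were genes past the threshold, the 10 smallest p in each direction, the 10 highest ratios, tested list genes, tested genes raised in 1 library, and 10 fixed genes, 43 tested genes in all; not all are described, and counts include them. The genes raised in 1 library that are named were chosen after their values were seen. Members and lists were chosen with earlier results of these data known. Coordinates are from RefSeq GRCm38.p6, which held 93 of the 94 symbols. No sequences are shown, since no measurement bears on them.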

Additional observations from a re-analysis of the deposited data

Results flagged for a closer look

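In 94 groups of 8 libraries tested for an outlying library, 6 had their highest value set apart from the rest, and chance gives about 1 in 20. Mplkip stood at 110.6 counts per 1000 in vehicle library 3, against 6.81 in the next. Vehicle library 8 had a negative probe of 4.10 (next 2.69) and a total count of 92110 (next 60270). In DD, Elof1, a transcription elongation factor, stood at 8.48 in library 2 (next 5.55), Txlnb at 9.56 in library 4 (next 7.62) and Pcsk1, a prohormone convertase, at 3.37 in library 6 (next 2.18). None of these last 3 genes passed the test between groups.

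The DD difference differed between APOE4 hippocampus and APOE4 cortex by the interaction test for Mplkip (log2 -3.08, adjusted p = 0.0322) and Psg27 (-1.62, adjusted p = 0.0354), both by edgeR over captured regions. Neither passed with the run of wells as a random block, with counts summed over runs, with DESeq2 or without vehicle library 3.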

How the results depend on the processing

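For DD against vehicle the count of 1 call was 2 with library sizes alone, 3 with genes over 1.5 times the negative probe (Mplkip, Hs3st5 and Acot11), 66 with no filter, 3 without vehicle libraries 3 and 6, and 8 with no filter and without them. It was 0 with the negative probe or the total of all genes as library size, library sizes without Mtch2, genes over 3 times the negative probe, filterByExpr, 1 or the negative probe subtracted, counts summed over runs, the run as a random block, and without libraries with a negative probe of 5 or more; leaving out 1 library or 1 run gave 0 to 2. It is lost when any 1 DD library is left out, since Mplkip lies near the threshold (adjusted p = 0.0125 to 0.519 over 16 single libraries left out). Mplkip changed sign, to 0.13, with no filter and without vehicle libraries 3 and 6. The negative probe as library size moved the median of the 94 genes from -0.07 to 0.15 and the total to 0.10, with 64 and 59 values above 0 in place of 39; upper-quartile factors moved it to -0.16, with 25. The APOE4 minus APOE3 count of 0 was 1 with no filter and 3 without vehicle libraries 3 and 6. The hippocampus minus cortex count of 2 was 1 with the total as library size, without Mtch2, over 3 times the negative probe, with 1 or the negative probe subtracted and without vehicle libraries 3 and 6 (Hikeshi, 1.57). It was 0 with DESeq2, filterByExpr, summed runs and the run as a random block, 23 with no filter, and 0 to 2 on leaving out 1 library or run. The DD against DC count of 32 was 49 with upper-quartile factors (45 lower), 56 with library sizes alone (54 lower), 74 with the negative probe or the total as library size (all 74 higher), 6 over 1.5 times and 3 over 3 times the negative probe, 2 with filterByExpr, 50 with no filter, 6 with the negative probe subtracted and 17 with summed runs. It was 0 with the run as a random block or without libraries with a negative probe of 5 or more, and 5 to 61 on leaving out 1 library or run. The 90 genes raised in 1 library were 45 at 10-fold, chosen after seeing the data, 17 without vehicle libraries 3 and 6, and 46 to 93 on leaving out 1 library. The cause of these changes was not tested. No paired analysis was possible because the labels give no replicate numbers. Depth limits the comparison to 94 genes.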
